A study of Mus musculus with 72 samples.

Results

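Cx3cr1 and Tmem119 are a pair of genes that microglia, the resident macrophages of the brain, express at rest. They make up 2 of the 1266 genes measured in mouse cortex with NanoString nCounter panels, which count fluorescent barcodes hybridised to a fixed set of transcripts. Their rows were taken by name, and they had been chosen by their measured log2 differences between M28L and 5xFAD mice, which run in opposite directions. That comparison is therefore given as a description, with no test. The question behind the study was what coding variants of Plcg2, a phospholipase that signals downstream of surface receptors in microglia, do in mice with amyloid plaques. The 36 mice, all 7.5 months old, fell into 3 genotypes of 6 females and 6 males each: 5xFAD mice with the M28L variant (M28L_5xFAD), 5xFAD mice with the P522R variant (P522R_5xFAD), and 5xFAD mice without either variant (5xFAD). Every mouse, including the 5xFAD mice that served as controls, carried the 5xFAD transgenes, human genes with familial Alzheimer's disease mutations that produce plaques. Mice without these transgenes were not analysed here.

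Cx3cr1 encodes the receptor for fractalkine, a chemokine that neurons make and that can be cut from their surface, and the pair is known for signalling from neurons to microglia. Tmem119 encodes a membrane protein widely used to tell microglia from macrophages that enter the brain from blood. Both genes are counted among the homeostatic microglia genes, which are known to decline as microglia gather around plaques and switch on genes such as Itgax and Cst7. Transforming growth factor beta, colony stimulating factor 1 and the transcription factors PU.1 (Spi1) and Sall1 help to maintain the resting state.

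The promoter of Cx3cr1 is shown because PU.1 belongs to the ETS family of transcription factors and the PU.1 gene, Spi1, is among the microglial genes described below. The 300 bases are from RefSeq, build GRCm38.p6, at chr9:120068247-120068546 on the minus strand, written 5′ to 3′ along the gene, with matches to the ETS core GGAA on either strand in capitals (TTCC is a match on the other strand).
Cx3cr1 promoter: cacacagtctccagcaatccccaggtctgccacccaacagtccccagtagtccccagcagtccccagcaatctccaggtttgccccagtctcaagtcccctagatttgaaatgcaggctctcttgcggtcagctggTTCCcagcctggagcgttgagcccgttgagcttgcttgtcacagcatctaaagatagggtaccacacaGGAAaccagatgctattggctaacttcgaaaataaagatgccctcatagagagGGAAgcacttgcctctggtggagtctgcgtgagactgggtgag
The window held 3 matches to GGAA, 2 on the strand of the gene and 1 on the other. Of 32851 promoters of the same length, 96.0% held at least 1 such match, with a median of 3, so this number is ordinary. The longer letters GAGGAA, a core that PU.1 prefers and that contains GGAA, had 0 matches in this window and at least 1 in 28.3% of promoters.

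Levels are the log2 values that the authors deposited. Each value was a whole count multiplied by a constant for the mouse and the panel, so the counts could be recovered. A mouse had between 237563 and 1957325 counts on a panel. On the panel of 757 genes that holds Cx3cr1 and Tmem119, the median total was 1104030 in M28L_5xFAD females, 1802004 in P522R_5xFAD females and 1137287 in 5xFAD females, and 1665496 in M28L_5xFAD males, 1695632 in P522R_5xFAD males and 1630026 in 5xFAD males. The labels name no run or batch. P522R mice and the sexes lay apart over the whole table, so a difference between runs cannot be told apart from a P522R or a sex difference. Markers of cortex were present: the 13 pan-microglia markers measured of 20 listed had at least 20 counts in every mouse, the 15 neuron markers at least 45 and the 8 astrocyte markers at least 113. Of 15 lymphocyte markers, 13 averaged under 20 counts, close to the floor of the assay.

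Cx3cr1 was lower in M28L_5xFAD mice of either sex than in 5xFAD mice. Among females its log2 level had a lowest value of 8.17, a median of 8.75 and a highest of 8.92 in M28L_5xFAD mice, against 8.61, 9.05 and 9.56 in 5xFAD mice. Among males these values were 8.71, 8.97 and 9.33 in M28L_5xFAD mice, against 9.12, 9.37 and 9.68 in 5xFAD mice. All 12 M28L_5xFAD mice lay below the same-sex 5xFAD mean, and 2 of 6 females and 4 of 6 males lay below every 5xFAD mouse of their sex, so the groups overlapped. The difference was -0.42 ± 0.10 on the log2 scale (SE, n = 12 each), or 1.34-fold lower, with -0.43 in females and -0.41 in males.

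Tmem119 stood the other way in M28L_5xFAD mice. In females its lowest, median and highest log2 levels were 5.36, 6.09 and 6.47 in M28L_5xFAD mice, against 5.17, 5.56 and 6.05 in 5xFAD mice. In males they were 6.02, 6.15 and 6.31 in M28L_5xFAD mice, against 5.38, 5.84 and 6.1 in 5xFAD mice. In 11 of 12 M28L_5xFAD mice the level lay above the 5xFAD mean of the sex, and in 3 of 6 females and 4 of 6 males above every 5xFAD mouse of the sex. The exception was female 20, which also had the lowest Cx3cr1 level of all 36 mice. The difference was 0.38 ± 0.11 (SE, n = 12 each), or 1.30-fold higher, with 0.41 in females and 0.34 in males. Over all 1266 genes the median difference was 0.00, and Cx3cr1 and Tmem119 stood at percentiles 2.7 and 96.3 of it.

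**Figure D1:**
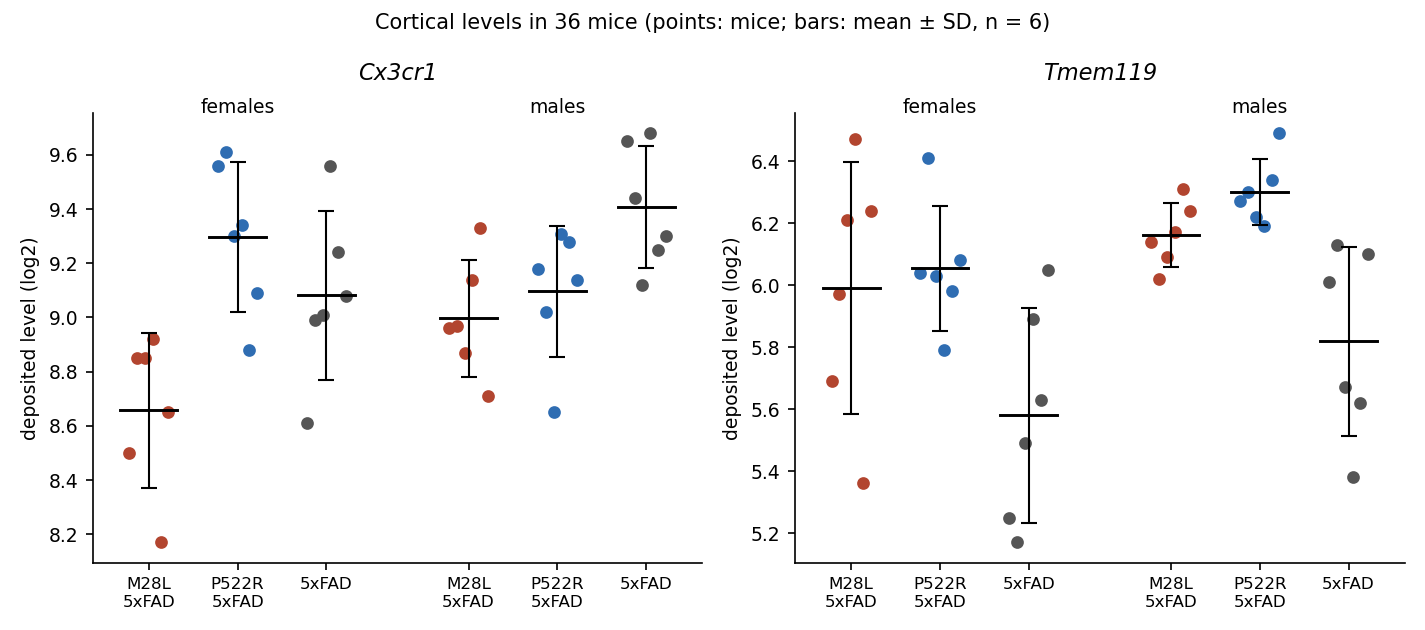
Deposited log2 levels of Cx3cr1 (left) and Tmem119 (right) in each mouse, females and males apart, with points for mice and bars for the mean ± SD (n = 6 per group). M28L_5xFAD mice sit low for Cx3cr1 and high for Tmem119, and all 6 P522R_5xFAD males sit above every 5xFAD male for Tmem119. The share of all genes that lie apart in this way was not counted, and 50.6% of genes passed between these males.

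P522R_5xFAD mice were tested against the mean of M28L_5xFAD and 5xFAD mice, a comparison that is independent of the difference that chose the pair. Tmem119 was higher by 0.29 ± 0.09 (SE, adjusted p = 0.006804 in limma) and Cx3cr1 by 0.16 ± 0.09 (SE, adjusted p = 0.08793), where 71.8% of all genes passed, 44.6% as higher. Tmem119 stood at percentile 72.1 and Cx3cr1 at percentile 58.8 of all genes, whose median was 0.09. The call of Tmem119 ended when each mouse was centred on the housekeeping genes Gusb and Tbp, at 0.17 (adjusted p = 0.183), or on its median within each panel, at 0.21 (adjusted p = 0.0503). Gusb and Tbp, from the panel of 509 genes, themselves differed between P522R_5xFAD and 5xFAD mice, at -0.23 and 0.3 (adjusted p = 0.02724 and 0.0005416 in limma). Cx3cr1 passed on leaving out 5xFAD female 1248, P522R_5xFAD female 60 or P522R_5xFAD male 27, with adjusted p down to 0.0296.

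Against 5xFAD mice alone the differences are given as values without a test, since the 5xFAD mice also helped to choose the pair. The lowest, median and highest log2 levels of Tmem119 were 5.79, 6.04 and 6.41 in P522R_5xFAD females, against 5.17, 5.56 and 6.05 in 5xFAD females, and 6.19, 6.28 and 6.49 in P522R_5xFAD males, against 5.38, 5.84 and 6.1 in 5xFAD males. All 12 P522R_5xFAD mice lay above the 5xFAD mean of their sex. Male P522R_5xFAD and 5xFAD mice did not overlap, and 2 of 6 females lay above every 5xFAD female. How many of all genes lay apart in this way was not counted. The difference of Tmem119 was 0.48 ± 0.11 (SE, n = 12 each), or 1.39-fold, and 0.48 in either sex. In this comparison 65.4% of all genes passed, 40.5% as higher and 24.9% as lower, and 60.2% passed in females and 50.6% in males. The difference of Tmem119 stood at percentile 86.0 of all genes, whose median was 0.08.

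For Cx3cr1 the lowest, median and highest log2 levels were 8.88, 9.32 and 9.61 in P522R_5xFAD females, against 8.61, 9.05 and 9.56 in 5xFAD females. In males they were 8.65, 9.2 and 9.31 in P522R_5xFAD mice, against 9.12, 9.37 and 9.68 in 5xFAD mice. In females 5 of 6 P522R_5xFAD mice lay above the 5xFAD mean, and in males 6 of 6 lay below it. Over both sexes the difference was -0.05 ± 0.10 (SE, n = 12 each), with a 95% interval of -0.25 to 0.16. It was 0.22 in females and -0.31 in males. Set directly against M28L_5xFAD mice, P522R_5xFAD mice differed by 0.37 ± 0.10 (SE) for Cx3cr1 and by 0.10 ± 0.11 (SE) for Tmem119, given as values because the M28L mice chose the pair.

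Whether the variant differences depended on sex was tested by interaction. The P522R difference of Cx3cr1 was larger in females than in males by 0.52 ± 0.20 (SE), with a 95% interval of 0.12 to 0.93. It did not pass after adjustment (adjusted p = 0.05587 in limma), where 20.9% of all genes passed. Leaving out each mouse in turn gave adjusted p between 0.021 and 0.127, and it passed without any 1 of 7 mice: 5xFAD female 1248, 5xFAD male 1182, M28L_5xFAD female 20, P522R_5xFAD females 60 and 8 and P522R_5xFAD males 29 and 30. Tmem119 showed 0.00 ± 0.22 (SE) in the same test (adjusted p = 0.9933). For M28L the difference between the sexes was -0.02 ± 0.20 (SE) for Cx3cr1 and 0.07 ± 0.22 (SE) for Tmem119. There limma called 0 of 1266 genes, 0% of those tested, with 34 at an unadjusted p under 0.05.

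Across the 6 groups the genes had different orders. By mean log2 level Cx3cr1 ran upward through M28L_5xFAD females (8.66 ± 0.29), M28L_5xFAD males (9.00 ± 0.21), 5xFAD females (9.08 ± 0.31), P522R_5xFAD males (9.10 ± 0.24), P522R_5xFAD females (9.30 ± 0.28) and 5xFAD males (9.41 ± 0.23; SD, n = 6 each). Of neighbours in this order, M28L_5xFAD females and males differed by more than the larger SD, and the others did not. That gap of 0.34 lies between the sexes, where the median of all genes was -0.38 in females against males. The place of females and males in these orders depends on the scaling, as given below. Tmem119 ran through 5xFAD females (5.58 ± 0.35), 5xFAD males (5.82 ± 0.31), M28L_5xFAD females (5.99 ± 0.41), P522R_5xFAD females (6.06 ± 0.20), M28L_5xFAD males (6.16 ± 0.10) and P522R_5xFAD males (6.3 ± 0.11; SD, n = 6 each). Here the last pair differed by more than the larger SD, and the other neighbours did not. That gap was 0.14, while counting alone gives an SD of 0.17 in M28L_5xFAD males and 0.16 in P522R_5xFAD males.

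Of all genes, 83.7% passed as lower in females than in males and 86.4% in either direction, with a median difference of -0.38. Against that, Tmem119 differed by -0.22 ± 0.09 (SE, adjusted p = 0.02345 in limma) and Cx3cr1 by -0.15 ± 0.08 (SE, adjusted p = 0.07428), both above the median by 0.16 and 0.22. The direction turned when each mouse was centred on its median, at 0.11 for Tmem119 (adjusted p = 0.283) and 0.17 for Cx3cr1 (adjusted p = 0.0486). No direction between the sexes is therefore given for this pair.

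Counts set how firmly single mice can be read. Tmem119 had few, with 27 counts (exact 95% Poisson interval 17.8 to 39.3) in 5xFAD female 1180 as the lowest and 93 counts (75.1 to 113.9) in P522R_5xFAD female 24 as the highest. Cx3cr1 ran from 224 counts (195.6 to 255.3) in M28L_5xFAD female 20 to 985 counts (924.4 to 1048.5) in P522R_5xFAD female 106. These intervals cover counting error only. The SD within groups was 0.27 for Tmem119, with 0.19 the part that counting alone gives, and 0.26 for Cx3cr1, with 0.07. The 100 dimmest genes of the panel, a measure of the floor, had a median of 9 counts in M28L_5xFAD females, 18.75 in P522R_5xFAD females and 8.5 in 5xFAD females, and of 16 in M28L_5xFAD males, 18.5 in P522R_5xFAD males and 16 in 5xFAD males. Subtracting that floor left Cx3cr1 at -0.43 and Tmem119 at 0.50 in M28L_5xFAD mice.

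Because both genes were counted on the same panel, the ratio of their counts in a mouse does not depend on scaling. The size of the ratio depends on the 2 probes and says nothing of which transcript is more abundant, so it was compared between groups only. Per 100 Cx3cr1 counts, the lowest, median and highest Tmem119 counts were 13.6, 15.2 and 18.8 in M28L_5xFAD females, against 7.1, 8.4 and 12.2 in 5xFAD females. In males they were 12.4, 13.5 and 18.0 in M28L_5xFAD mice, against 5.1, 8.6 and 10.9 in 5xFAD mice. All 12 M28L_5xFAD mice lay above every 5xFAD mouse of their sex, which follows in part from how the pair was picked. The ratio was 1.79-fold that of 5xFAD mice in females and 1.68-fold in males.

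For P522R_5xFAD mice the ratio was set against that of 5xFAD mice within each sex. It ran through 8.5, 10.6 and 13.4 in P522R_5xFAD females, against 7.1, 8.4 and 12.2 in 5xFAD females, and through 11.6, 14.2 and 18.5 in P522R_5xFAD males, against 5.1, 8.6 and 10.9 in 5xFAD males. All 6 males and 2 of 6 females lay above every 5xFAD mouse of their sex. The share of other gene pairs that lie apart in this way was not counted. The ratio was 1.20-fold that of 5xFAD mice in females and 1.73-fold in males, where the difference between the sexes was not tested.

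**Figure D2:**
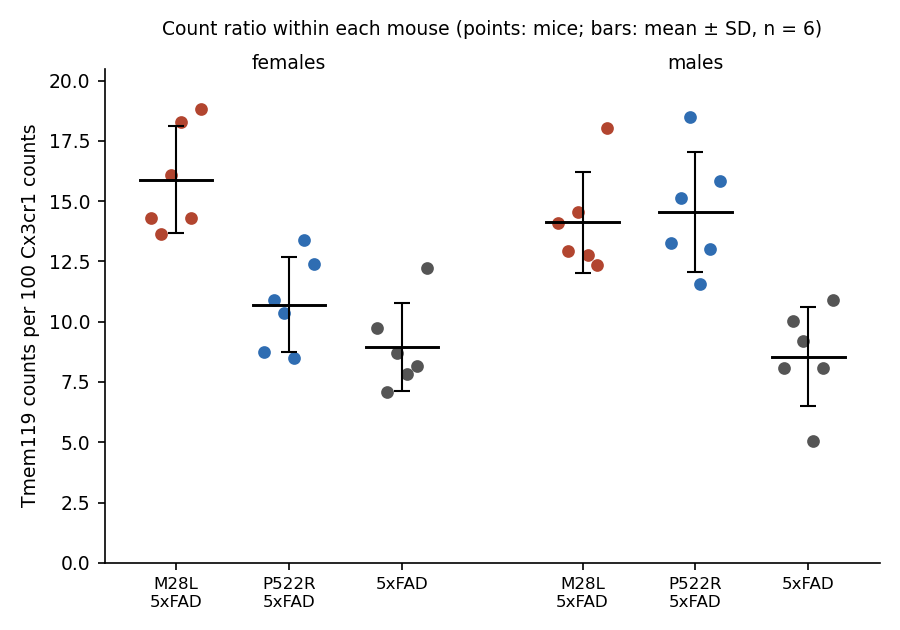
Tmem119 counts per 100 Cx3cr1 counts within each mouse, females and males apart, with points for mice and bars for the mean ± SD (n = 6 per group). All 12 M28L_5xFAD mice and the 6 P522R_5xFAD males lie above every 5xFAD mouse of their sex, whereas P522R_5xFAD females overlap with 5xFAD females. Ratios of other gene pairs were not counted in this way.

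The other measured genes of the fractalkine axis are its ligand and proteases that release it. Cx3cl1, which encodes fractalkine, differed by -0.01 ± 0.09 (SE, adjusted p = 0.9584 in limma) in M28L_5xFAD mice, against a background of 10.3% of genes called, 4.66% as higher and 5.61% as lower. In P522R_5xFAD mice it rose by 0.71 ± 0.09 (SE, adjusted p = 3.665e-08 in limma), where 40.5% of all genes passed as higher and 24.9% as lower. Every P522R_5xFAD mouse lay above every 5xFAD mouse of its sex, but how many of all genes lay apart in this way was not counted. The lowest, median and highest log2 levels of Cx3cl1 were 10.96, 11.31 and 11.41 in P522R_5xFAD females, against 9.64, 10.51 and 10.66 in 5xFAD females. In males they were 11.37, 11.54 and 11.58 in P522R_5xFAD mice, against 10.76, 11.04 and 11.11 in 5xFAD mice. Adam10, a protease that can release fractalkine, was at 0.00 ± 0.06 (SE, adjusted p = 0.9825) in M28L_5xFAD mice and fell by 0.40 ± 0.06 (SE, adjusted p = 1.292e-07) in P522R_5xFAD mice. Ctss, a protease that microglia secrete and that can also release it, was at -0.27 ± 0.11 and -0.09 ± 0.11 (SE, adjusted p = 0.1235 and 0.5102 in limma) in M28L_5xFAD and P522R_5xFAD mice, without passing. Both variant comparisons share the 5xFAD mice. Adam10 was counted on the panel of 509 genes and the other measured genes of this axis on that of 757, each with its own scaling.

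Genes of the homeostatic list went in both directions in M28L_5xFAD mice. Of its 31 measured genes beside the pair, 3 rose, 3 fell and 25 did not pass, with a median of -0.07 against 0.00 over all genes. Of all genes, 4.66% rose and 5.61% fell in this comparison. Among the genes that fell were Tgfbr2, a receptor for transforming growth factor beta, at -0.41 ± 0.08 (SE, adjusted p = 0.000916), and Csf3r, the granulocyte colony stimulating factor receptor, at -0.42 ± 0.13 (adjusted p = 0.03024). The genes that rose were Egr1, an immediate early gene that neurons also express, at 0.51 ± 0.11 (adjusted p = 0.0008602), Bhlhe41, a transcription factor, at 0.32 ± 0.08 (adjusted p = 0.004757), and Smad3, which carries the signal of transforming growth factor beta and is not limited to microglia, at 0.25 ± 0.06 (adjusted p = 0.007394; limma throughout). P2ry12, a purine receptor and a common microglia marker, was at -0.07 ± 0.09 and Sall1 at 0.07 ± 0.08 (SE, adjusted p = 0.6778 and 0.6385 in limma). Csf1r, the receptor that microglia need for survival, was at -0.26 ± 0.10 and Siglech, a lectin, at -0.10 ± 0.09 (SE, adjusted p = 0.09857 and 0.5368 in limma), and neither passed.

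In P522R_5xFAD mice 12 of these 31 genes rose, 7 fell and 12 did not pass, with a median of 0.10 against 0.08 over all genes. Shares of 40.5% higher and 24.9% lower over all genes leave this count near the background. Among the rises were Egr1 at 1.03, Mertk, a receptor for the uptake of dying cells, at 0.50, Smad3 at 0.48, Rhob at 0.38, Bhlhe41 at 0.32, and Gas6, a ligand of Mertk, at 0.25. Among the falls were Tgfbr1, another receptor for transforming growth factor beta, at -0.51, Bin1, an endocytosis gene that neurons and oligodendrocytes also express, at -0.30, and Mef2a, a transcription factor, at -0.19 (log2 differences). Csf1r rose by 0.23 ± 0.10 (SE, adjusted p = 0.04285 in limma), whereas P2ry12, Sall1 and Siglech were at 0.00, 0.02 and -0.19 without passing. Tgfbr2 was at -0.41 in M28L_5xFAD mice and at 0.29 in P522R_5xFAD mice, like Cx3cr1 in the first comparison and like Tmem119 in the second. Tgfbr2 was counted on the panel of 509 genes, whose scaling is separate from that of the pair.

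**Figure D3:**
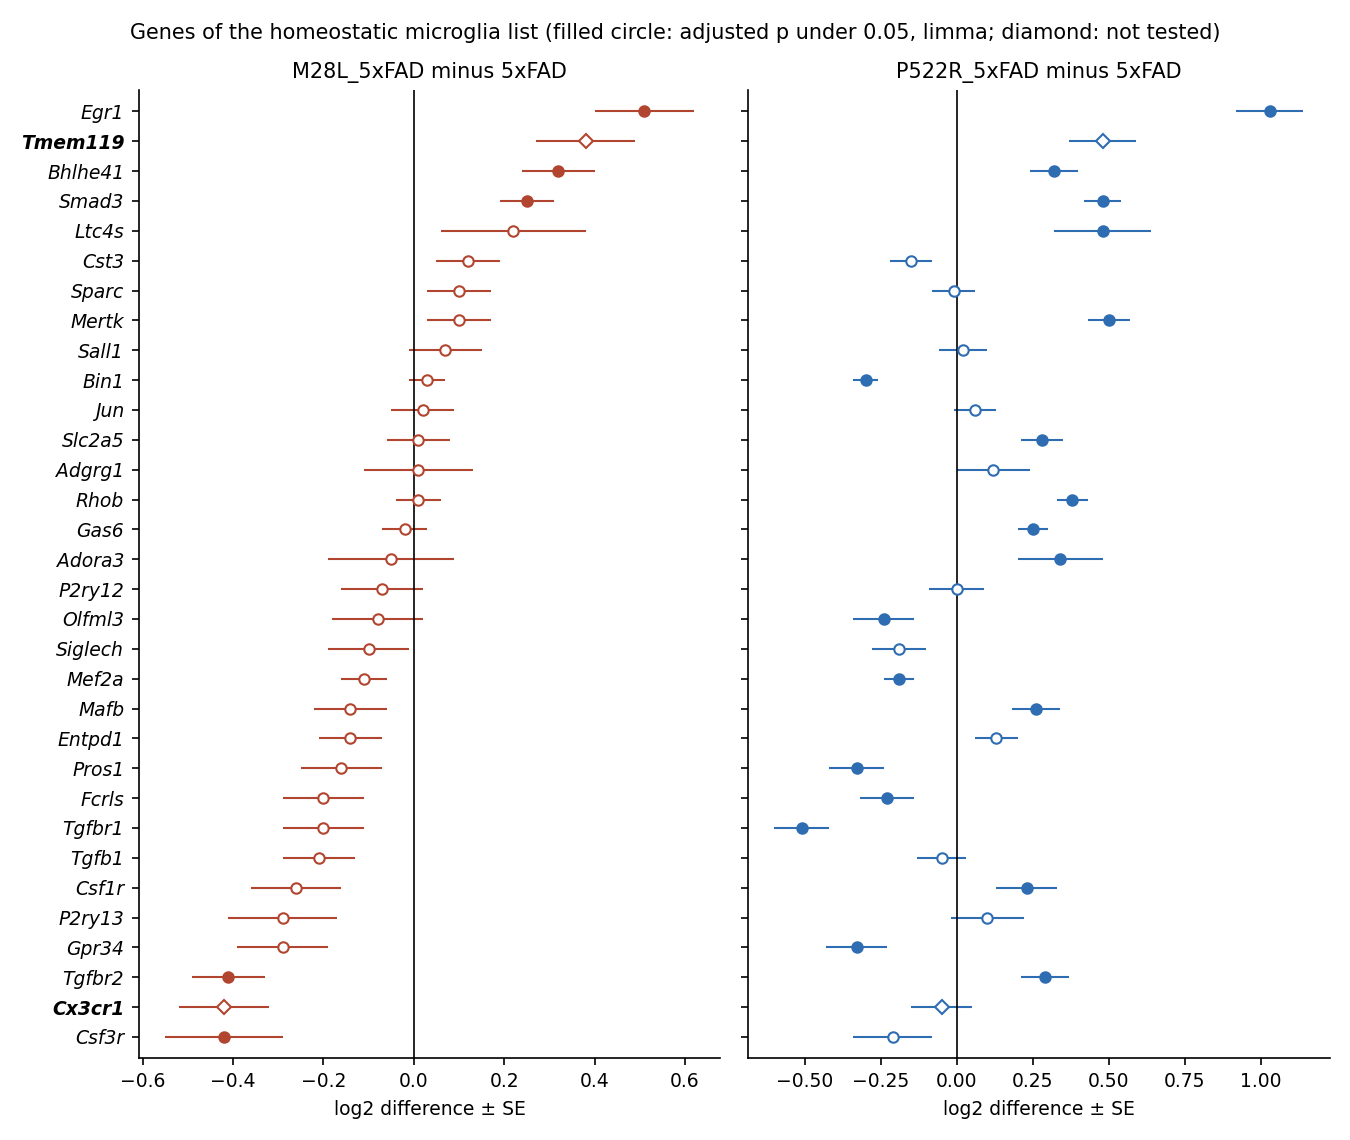
Log2 differences from 5xFAD with their SE for genes of the homeostatic list, M28L_5xFAD on the left and P522R_5xFAD on the right, ordered by the M28L difference. Filled circles passed an adjusted p of 0.05, open circles did not, and the diamonds mark Cx3cr1 and Tmem119, not tested here because these mice helped to choose them. Cx3cr1 and Tmem119 lie near opposite ends on the left, while on the right Cx3cr1 lies next to 0.

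Markers common to all microglia moved with these groups. Of the 13 pan-microglia markers, 5 fell and 0 rose in M28L_5xFAD mice, with a median of -0.27, where 5.61% of all genes fell and 4.66% rose. In P522R_5xFAD mice 7 fell and 1 rose, with a median of -0.24, where 24.9% of all genes fell and 40.5% rose, so that the share passing in either direction is near the background of 65.4%. The smallest p in M28L_5xFAD mice belonged to Ptprc, the pan-leukocyte gene CD45, at -0.81 ± 0.16, the lysosomal gene Cd68 at -0.54 ± 0.11 and Spi1 at -0.33 ± 0.08 (SE, adjusted p = 0.0004499, 0.0008602 and 0.004162 in limma). In P522R_5xFAD mice it belonged to Aif1, which encodes IBA1, at -0.80 ± 0.09, and to the complement genes C1qb at -0.77 ± 0.10 and C1qa at -0.51 ± 0.10 (SE, adjusted p = 4.398e-09, 4.569e-08 and 3.726e-05 in limma). The summed linear level of the 13 genes ran from 11798 to 12558 in M28L_5xFAD females, 8598 to 16823 in P522R_5xFAD females and 12671 to 17816 in 5xFAD females. In males it ran from 8543 to 13493 in M28L_5xFAD, 7177 to 13921 in P522R_5xFAD and 11402 to 15041 in 5xFAD mice. In whole cortex, fewer microglia and less RNA per microglial cell cannot be told apart. Tyrobp, Trem2 and Cd68, among the 5 markers that fell in M28L_5xFAD mice, are also on the list of plaque-associated genes below, so the lists are not independent.

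Set against the mean log2 level of those 13 markers in the same mouse, the difference of Cx3cr1 between M28L_5xFAD and 5xFAD mice was smaller and that of Tmem119 was larger. Relative to that mean, Tmem119 stood at -2.93 ± 0.39 in M28L_5xFAD females, -2.96 ± 0.35 in P522R_5xFAD females and -3.69 ± 0.29 in 5xFAD females. It stood at -2.67 ± 0.15 in M28L_5xFAD males, -2.51 ± 0.30 in P522R_5xFAD males and -3.32 ± 0.34 in 5xFAD males (SD, n = 6 each). In either variant Tmem119 was thus higher relative to the markers, by more than the SD of each group. Cx3cr1 relative to the same mean was at -0.26 ± 0.26 in M28L_5xFAD females, 0.28 ± 0.13 in P522R_5xFAD females and -0.18 ± 0.15 in 5xFAD females. It was at 0.17 ± 0.15 in M28L_5xFAD males, 0.29 ± 0.11 in P522R_5xFAD males and 0.27 ± 0.09 in 5xFAD males (SD, n = 6 each). Relative to the markers, M28L_5xFAD and 5xFAD mice of either sex thus differed in Cx3cr1 by less than the larger SD of the groups. These values use the M28L difference that chose the pair and carry no test. The mean of the markers includes Tyrobp, Trem2 and Cd68, so it is not a measure of the number of microglia alone.

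Genes that microglia raise at plaques were lower in M28L_5xFAD mice. Of 31 measured, 20 fell and 0 rose in M28L_5xFAD mice, with a median of -0.41, where 5.61% of all genes fell. Those that fell include Tyrobp, Trem2 and Cd68, already counted among the pan-microglia markers. In P522R_5xFAD mice 9 fell and 8 rose, with a median of -0.07, where 24.9% of all genes fell and 40.5% rose. The smallest p in M28L_5xFAD mice belonged to the chemokine gene Ccl3 at -1.26, the oxidase gene Cybb at -1.10 and the inhibitory receptor gene Lilrb4a at -1.05. The M28L_5xFAD mice thus had lower plaque-associated genes and lower Cx3cr1 beside higher Tmem119. The smallest p in P522R_5xFAD mice belonged to Serpine2 at -0.43, the ferritin gene Fth1 at -0.50 and Npc2, a cholesterol transport gene, at -0.64. Of 18 listed markers of blood-derived and border macrophages, 6 were measured, of which 1 rose in M28L_5xFAD and 4 in P522R_5xFAD mice, where 4.66% and 40.5% of all genes rose. Their summed level ran from 303 to 420 in M28L_5xFAD females, 486 to 752 in P522R_5xFAD females and 206 to 324 in 5xFAD females, and from 493 to 637 in M28L_5xFAD males, 694 to 931 in P522R_5xFAD males and 450 to 631 in 5xFAD males. Fn1, the gene of these that rose in M28L_5xFAD mice, had a mean log2 level of 8.46, against 5.69 for Stab1 as the next highest. The sum thus mostly follows Fn1, and 2 of the 6 averaged under 20 counts. The part of such macrophages in the levels of Cx3cr1 and Tmem119 was not tested.

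Within groups the pair went together rather than apart. After the 6 group means were removed, the levels of Cx3cr1 and Tmem119 correlated over the 36 mice with Pearson r = 0.49 (permutation p = 0.00812) and Spearman rho = 0.48 (permutation p = 0.00788). Without the 2 mice farthest from the median of Cx3cr1, M28L_5xFAD females 20 and 12, r was 0.34 (permutation p = 0.0975), so the relation rests in part on those mice. By genotype r was 0.75 in M28L_5xFAD, 0.36 in P522R_5xFAD and 0.37 in 5xFAD mice (n = 12 each; permutation p = 0.00963, 0.311 and 0.27, and 0.0289, 0.311 and 0.311 adjusted over the 3). The M28L_5xFAD value includes females 20 and 12 and was not computed without them. With each mouse centred on the median of its genes r was 0.44 (permutation p = 0.02). Thus the opposite direction seen between M28L_5xFAD and 5xFAD mice was not seen between mice of a group.

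**Figure D4:**
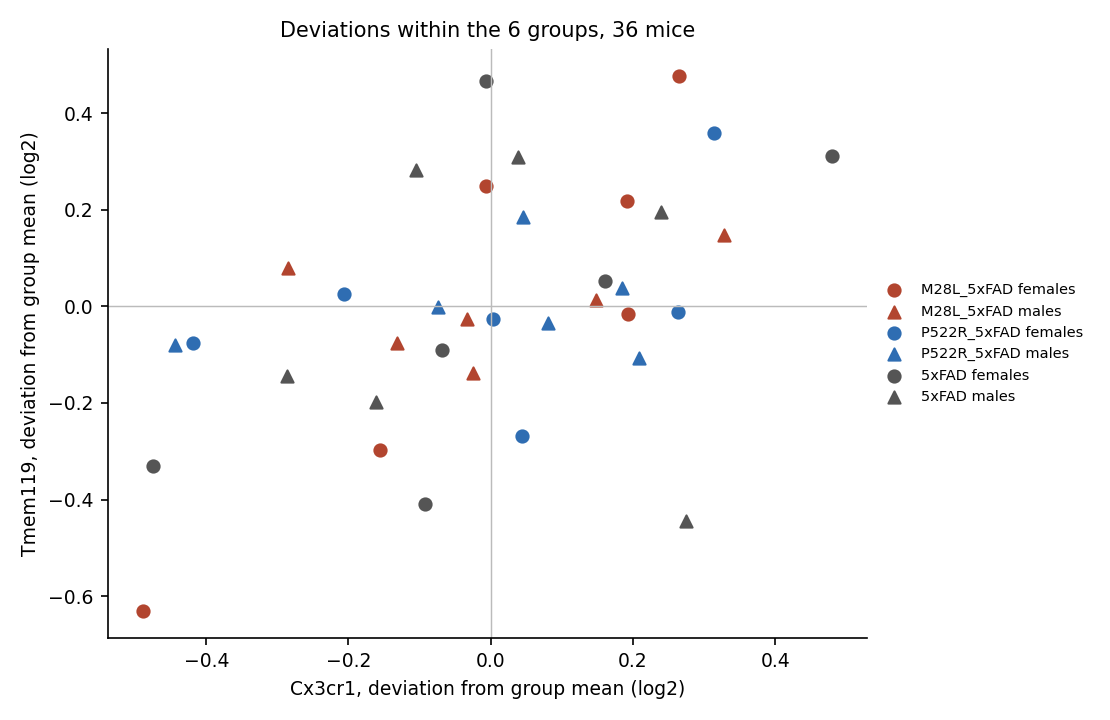
Deviation of each of the 36 mice from its group mean, in log2 units, for Cx3cr1 (horizontal) and Tmem119 (vertical), with colours for genotype, circles for females and triangles for males. Most mice lie in the lower left and upper right, and M28L_5xFAD female 20 is the lowest point for both genes.

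The genes most like each member over mice were different ones. Among 1090 genes with a mean log2 of at least 5, those with the highest r with Cx3cr1 across the 36 mice after removal of the group means were Grn at 0.88, Itgam at 0.82, Olfml3 at 0.82, C3ar1 at 0.81 and Cd68 at 0.80. All 5 are expressed by microglia: Grn encodes progranulin, Itgam an integrin, C3ar1 a complement receptor. The lowest were Tpm1 at -0.56, Bcl2l1 at -0.52 and Tbpl1 at -0.48, and the median over all genes was 0.09. For Tmem119 the highest were Olig1, a transcription factor of oligodendrocytes, at 0.60, Prkcd at 0.56, Bace1, the beta-secretase gene, at 0.56, the myelin gene Pmp22 at 0.55 and Trim2 at 0.54. The lowest were Acvrl1 at -0.57, Abcg2 at -0.55 and Scn1a, a sodium channel gene, at -0.50, with a median of 0.04.

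The difference in likeness extended to the homeostatic list. Of 30 list genes above that level, 15 had an r above 0.5 with Cx3cr1 and 0 with Tmem119, where 116 and 12 of all 1090 genes did. The median r was 0.54 with Cx3cr1 and 0.25 with Tmem119, whose highest r in the list, 0.49, was with Cx3cr1. These r values are descriptions over mice that share a scaling for each panel, and the counting error of Tmem119 is larger than that of Cx3cr1.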

How the data were processed

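Per the labels' protocols, cortical total RNA came from a PureLink kit and was hybridised by NanoString's standard protocol. The table the authors deposited holds log2 values with a column for each mouse, joining both panels. How these were normalized is not given in the sources used. Of 1517 rows, 251 were empty, which leaves 1266 genes, of which 1251 matched a RefSeq symbol. On the linear scale each mouse had 2 steps, and 100.0% of its values were whole multiples of one of them, within 0.05 counts. This gave back counts and split the genes into panels of 757 and 509. Columns were matched to mice by genotype, sex and animal number.

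The deposited log2 values were fitted in limma 3.58.1 (R 4.3.3), with a mean for each of the 6 groups, a spread shared by all 36 mice and eBayes with a trend on mean level. Contrasts were averaged over the sexes unless a sex is named. All p are two-sided, with Benjamini-Hochberg adjustment across 1266 genes and a threshold of 0.05 on the adjusted p. No pseudocount was added. Permutation tests of correlations used 100000 resamples. The fit was tested on simulated data.

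The members and lists were chosen with earlier results of these data known, as was the rule for which genes are named. It took the pair, the fractalkine axis, up to 10 called homeostatic genes per variant with the smallest p, fixed markers, the 3 smallest p of 2 further lists, and the 5 highest and 3 lowest r with each member. Each mouse counts as 1 replicate. A pair of M28L_5xFAD females share the animal number 14 and were kept as separate mice. Animal numbers pair no mice: the number 21 is the one found in different groups, M28L_5xFAD and P522R_5xFAD males. Plcg2 itself was not analysed here, and a result that the rule takes is not reported here, in the text or the plot of the homeostatic list. Alternatives were median, quantile, housekeeping and within-panel centring, a pseudocount of 20, a filter at a mean log2 of 5, no trend, no sex term, other sets of samples, an index-number block, subtraction of the floor and leaving out each mouse. Within-panel centring, floor subtraction and the correlation by genotype were chosen after seeing the data.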

Additional observations from a re-analysis of the deposited data

Results flagged for a closer look

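Among the 30 groups of 6 mice examined for Cx3cr1, Tmem119 and other genes described with them, 2 held a mouse far from the rest, both for Cx3cl1, the fractalkine gene. M28L_5xFAD female 12 had a log2 level of 9.56, with the nearest of its group at 10.26, a gap that was 0.69 of the range of the group. P522R_5xFAD male 29 had 11.37, with the nearest at 11.51, a gap of 0.66 of the range. By chance alone such a gap is met in about 5% of groups, so a few are to be anticipated among 30. Neither Cx3cr1 nor Tmem119 had such a mouse in any of the 6 groups.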

How the results depend on the processing

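Of 163 values under alternatives other than leaving out a mouse, 142 were counted as the same. For most this meant the same direction and side of the threshold. The untested M28L differences of the pair had to keep their direction and move by less than the SD within groups. Numbers of genes called had to stay at a similar size. In M28L_5xFAD mice Cx3cr1 stayed between -0.44 and -0.25 and Tmem119 between 0.28 and 0.54, where centring on the housekeeping genes Gusb and Tbp moved the median of all genes to 0.17. That centring gave 306 genes called for M28L (276 higher, 30 lower) in place of 130 (59 higher, 71 lower), and a fit without a sex term gave 30. Gusb itself was at -0.47 and Tbp at 0.14 in M28L_5xFAD mice against 5xFAD mice (adjusted p = 0.0005538 and 0.2675 in limma). The call of Tmem119 in P522R_5xFAD mice against the mean of the other genotypes ended with housekeeping centring, at 0.17, and within-panel centring, at 0.21. The difference between females and males turned for both genes: Cx3cr1 to 0.17 with median centring, 0.18 with quantile normalization, 0.11 with housekeeping centring and 0.10 with within-panel centring, and Tmem119 to 0.11, 0.17, 0.05 and 0.04. With the floor subtracted Tmem119 was at -0.14 there, no longer called. Differences of the M28L effect between the sexes changed sign near 0, with Cx3cr1 at 0.09 (housekeeping) and 0.02 (replicate block) and Tmem119 at -0.01 (floor); so did the P522R effect for Tmem119, at 0.06 (housekeeping) and 0.00 (replicate block). This block uses an index number whose meaning the labels do not give. P522R_5xFAD female 8 has no index and was entered by its animal number. It thus shared a block with the M28L_5xFAD female of index 8, a pairing that the labels do not give. The block fit gave 89 genes called for M28L and 773 for P522R. It left the M28L differences of Cx3cr1 and Tmem119 at -0.41 and 0.32, and could not be fitted for the sex difference. The correlation of the pair was 0.34 without the 2 farthest mice, 0.36 in P522R_5xFAD and 0.37 in 5xFAD mice.

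Leaving out each mouse in turn gave 100 to 157 genes called for M28L and 788 to 851 for P522R. Cx3cr1 ran from -0.47 to -0.37 for M28L, -0.09 to 0.00 for P522R, 0.13 to 0.21 for P522R against both, -0.11 to 0.08 for M28L by sex, 0.43 to 0.62 for P522R by sex and -0.19 to -0.12 for females against males. The last passed without any 1 of 5 mice: 5xFAD female 1248, 5xFAD male 1182, M28L_5xFAD male 9, P522R_5xFAD female 24 and P522R_5xFAD male 27 (adjusted p down to 0.0274). Tmem119 ran from 0.33 to 0.44, 0.44 to 0.53, 0.26 to 0.32, -0.03 to 0.20, -0.08 to 0.09 and -0.25 to -0.18 in the same comparisons. The cause of these changes was not tested. Depth limits the reading of Tmem119, with as few as 27 counts in a mouse.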
